A study of Rattus norvegicus with 6 samples.

Results

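The 5 genes described here encode neurotrophins and their receptors: Bdnf and Ntf3, which encode secreted ligands, Ntrk2 and Ntrk3, which encode receptor tyrosine kinases, and Ngfr, which encodes the shared receptor p75NTR. They were found by matching the transcript accession of every non-control probe to current gene symbols, and all probes of each gene were kept. This gave 8 probes of 30367 on the array, for 5 of 15154 named genes. Bdnf was read by probe A_44_P437896, Ntf3 by A_44_P496447 and Ngfr by A_44_P556989. Ntrk2 was read by A_42_P538400 and A_64_P058883, both designed on NM_012731, and by A_42_P631184, designed on NM_001163168. Ntrk3 was read by A_64_P035162 and A_64_P127858, both designed on NM_019248.

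The samples were hippocampi of male Wistar rats, either orchidectomized (castrated by removal of the testes) or sham-operated at 2 months of age. Tissue was taken 2 weeks after surgery, and all animals were anesthetized with ketamine and medetomidine. Each group held 3 samples that the labels call biological replicates, here orchidectomized 1 to 3 and sham 1 to 3. Each RNA sample was read on its own 1-colour Agilent array, where brightness at a probe stands for transcript abundance, so precision is set by 3 arrays a group. Values given are log2 intensities less the array's own 75th percentile, so a value of 0 is the brightness of that percentile. Levels of different probes cannot be set against each other on this scale.

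Neurotrophins are made as precursors that are cleaved to mature growth factors. Mature BDNF acts mainly through TrkB, the product of Ntrk2, and NT-3, the product of Ntf3, mainly through TrkC, the product of Ntrk3, while p75NTR binds all mature neurotrophins and, with sortilin, their precursors. In the hippocampus BDNF is a product of glutamatergic neurons known for its part in synaptic plasticity, and Ntf3 is known for expression in dentate granule cells. TrkB and TrkC also exist in truncated forms without the kinase, and astrocytes carry mostly truncated TrkB.

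Bdnf is transcribed from several start sites, and the promoter windows below are shown because the study removed the main source of androgen and steroid receptors, the androgen receptor among them, bind elements built from TGTTCT. RefSeq windows of the GRCr8 assembly, from 250 bases before to 50 after a start, were matched for 2 of the 5 genes, with 6 windows for Bdnf and 3 for Ntf3. These windows are not all separate stretches, since a pair of the Ntf3 windows is shifted by 1 base and a pair of Bdnf windows overlaps over most of its length; none of those 4 holds a match. TGTTCT, read on both strands, occurred in 2 of the 6 Bdnf windows and in 0 of the 3 Ntf3 windows, and 20.7% of 33469 windows of all genes hold it. TGACG, the core of the element bound by CREB, through which neuronal activity drives Bdnf, occurred in 1 Bdnf window and in 0 Ntf3 windows, against 21.2% of all windows. The full element TGACGTCA, which contains TGACG on both strands, occurred in none of these 9 windows and in 1.83% of all windows. The 3 Bdnf windows with a match lie on the plus strand and are printed with the matching bases in capitals.
chr3:116619383-116619682: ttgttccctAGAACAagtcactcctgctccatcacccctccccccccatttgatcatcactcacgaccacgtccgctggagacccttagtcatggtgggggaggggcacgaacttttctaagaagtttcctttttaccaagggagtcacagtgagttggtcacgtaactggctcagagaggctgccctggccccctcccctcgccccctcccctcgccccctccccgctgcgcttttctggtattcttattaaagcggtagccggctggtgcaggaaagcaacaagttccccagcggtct
chr3:116620585-116620884: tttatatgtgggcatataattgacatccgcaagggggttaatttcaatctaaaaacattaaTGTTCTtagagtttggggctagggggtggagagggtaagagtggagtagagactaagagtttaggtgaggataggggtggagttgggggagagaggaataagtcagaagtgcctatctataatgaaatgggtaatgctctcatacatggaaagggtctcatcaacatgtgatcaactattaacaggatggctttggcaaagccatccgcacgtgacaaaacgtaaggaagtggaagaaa
chr3:116637608-116637907: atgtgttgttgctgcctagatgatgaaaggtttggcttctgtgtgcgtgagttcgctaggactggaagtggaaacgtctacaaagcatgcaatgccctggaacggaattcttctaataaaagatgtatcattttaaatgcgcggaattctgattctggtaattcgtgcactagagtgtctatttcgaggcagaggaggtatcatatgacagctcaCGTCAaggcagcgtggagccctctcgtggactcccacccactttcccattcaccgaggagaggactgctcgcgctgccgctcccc
The AGAACA in the chr3:116619383-116619682 window, the reverse complement of TGTTCT, began at position -241 from the start, the TGTTCT in the chr3:116620585-116620884 window at -189, and the CGTCA in the chr3:116637608-116637907 window, the reverse complement of TGACG, at -35. These matches describe the windows. The deposited values cannot be assigned to a start site, since the place of the Bdnf probe within the transcript is not given in the sources used here.

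The array labelled sham 2 went against its tissue label. Its choroid plexus genes (14 of 14 higher than the median of the other 5 arrays, median difference 8.40 log2 units) stood far above the other arrays, and its glutamatergic neuron genes (10 of 10 lower, median -7.48) far below. The mean level of the choroid plexus list was 4.44 there, against -3.92 to -2.94 on the orchidectomized arrays and -3.48 and -4.36 on sham 1 and sham 3. Slc17a7, the vesicular glutamate transporter of hippocampal pyramidal cells, and Prox1, a dentate granule cell factor, were not well above background on that array and were well above it on the other 5. Other genes of their lists stayed well above background there, 6 of 10 for glutamatergic neurons and 6 of 8 for the dentate and CA field list. The latter had 7 such genes on each other array. Of its 8 genes 7 were lower on the array labelled sham 2 (median -4.65 log2 units) and 1 was higher. Every comparison of the 5 genes is therefore given with that array and without it. The other 5 arrays correlated with each other at 0.987 to 0.996 across probes and with the array labelled sham 2 at 0.803 to 0.813, where probes are not independent replicates.

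No member differed between the groups past the test's threshold in either comparison. Over 6 arrays, limma called 0 of the 8 member probes at an adjusted p under 0.05 and 0 at an unadjusted p under 0.05, beside 0.0% and 0.731% of all 24630 tested probes. With that array set aside it again called 0 of 8 at both thresholds, beside 0.0% and 2.71% of 25208 probes. Estimates lay below 0 for 1 of 8 member probes with 6 arrays, beside 51.6% of all probes, and for 6 of 8 with 5 arrays, beside 55.1%. All 8 probes passed the brightness filter in both comparisons, and none was saturated. With 6 arrays, Bdnf and Ntf3 passed it through the orchidectomized group only, since they were not well above background on the array labelled sham 2. The groups overlapped at 8 of 8 member probes in both comparisons, while groups without overlap were found at 8.0% of all tested probes with 6 arrays and at 16.3% with 5.

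**Figure D1:**
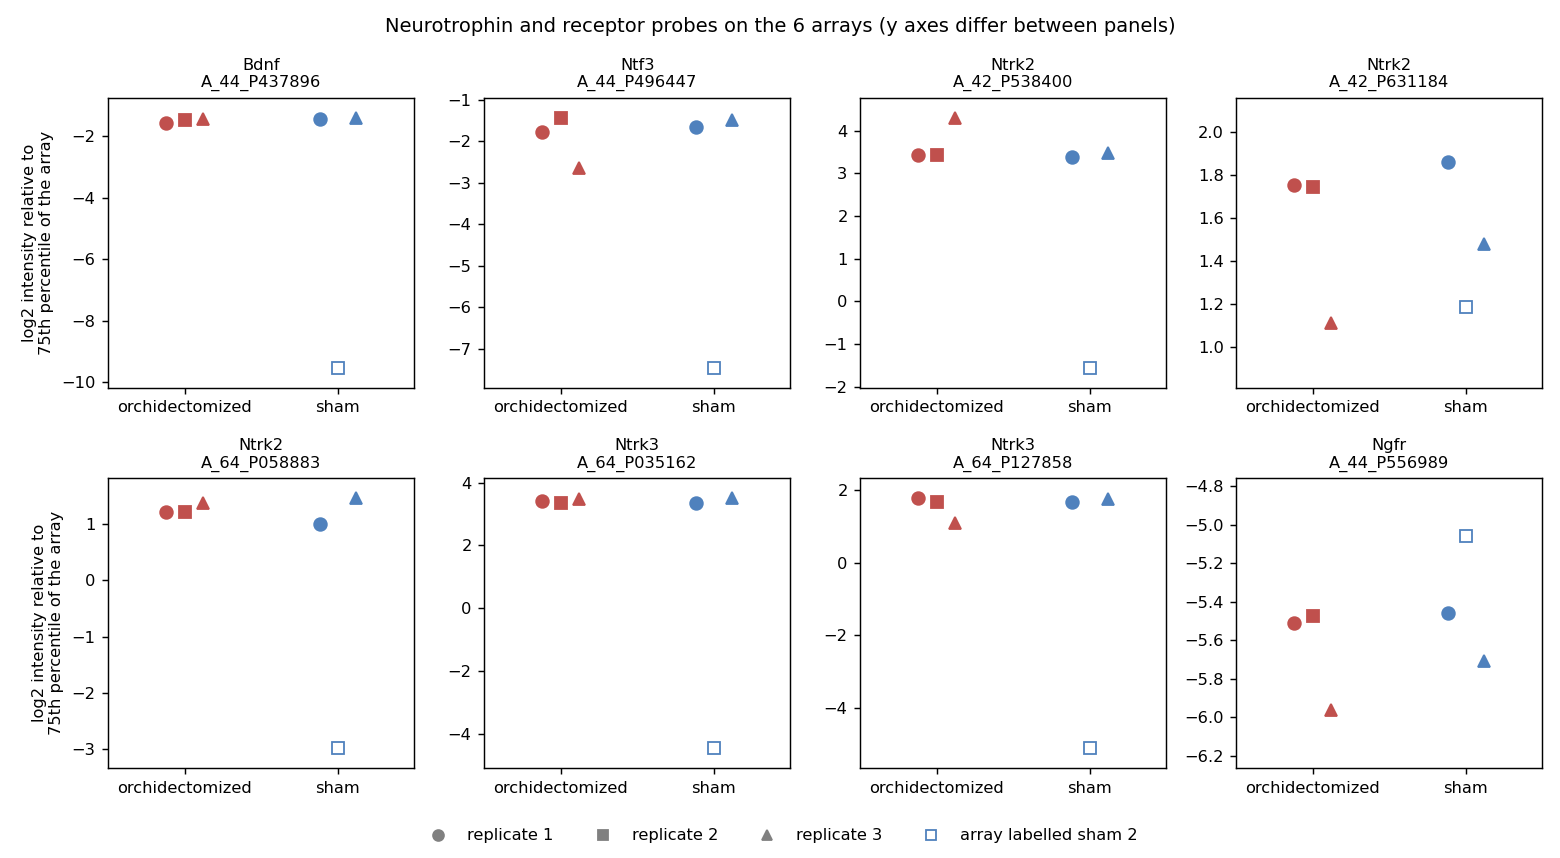
Log2 intensity of each of the 8 probes (y axis, less the array's 75th percentile, scale differs between panels) on the orchidectomized and sham arrays (x axis); each point is 1 array and the open square is the array labelled sham 2. That array is the lowest point at 6 of the 8 probes, while at Ngfr it is the highest.

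Bdnf, the gene of the main TrkB ligand, was level across the 5 arrays other than sham 2. Its values were -1.58, -1.47 and -1.46 on orchidectomized 1 to 3, against -1.46, -9.52 and -1.41 on sham 1 to 3. The groups overlapped, and the 5 arrays other than sham 2 lay within 0.167 log2 units of each other. The probe was spotted 10 times on each array, and the SD between spots was 0.024 to 0.049 on those 5 arrays. Without the array labelled sham 2 the orchidectomized mean was -1.50 ± 0.069 (SD, n = 3) and the sham mean -1.44 ± 0.034 (SD, n = 2). The difference was -0.064 ± 0.12 (SE; adjusted p 0.988 by limma), and its 95% interval ran from 0.773-fold to 1.18-fold. With all 6 arrays the difference was 2.63 ± 2.28 (SE; adjusted p 0.775 by limma). Its size rests on the sham 2 value, which was not well above background.

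Ntf3, the gene of the main TrkC ligand, had 1 low array in each group. Its values were -1.76, -1.43 and -2.63 on orchidectomized 1 to 3, against -1.64, -7.46 and -1.48 on sham 1 to 3. The groups overlapped. Orchidectomized 3 stood at -1.07 from the median of the other 4 arrays once sham 2 was set aside, and those 4 spanned 0.329 log2 units. Leaving out the array labelled sham 2, the difference was -0.38 ± 0.36 (SE; adjusted p 0.988 by limma), with a 95% interval of 0.415-fold to 1.42-fold. It was -0.037 when orchidectomized 3 was left out as well. Over 6 arrays the difference was 1.59 ± 1.70 (SE; adjusted p 0.775 by limma). Its size rests on the sham 2 value, which was not well above background.

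The 3 probes of Ntrk2, the TrkB gene, did not follow a common pattern. A_42_P538400 had 3.42, 3.44 and 4.30 on orchidectomized 1 to 3, against 3.39, -1.56 and 3.47 on sham 1 to 3. A_64_P058883, designed on the same transcript, had 1.21, 1.21 and 1.37, against 1.01, -2.98 and 1.46. A_42_P631184, designed on NM_001163168, had 1.75, 1.75 and 1.11, against 1.86, 1.18 and 1.48. Both NM_012731 probes were thus far lower on the array labelled sham 2, with a distance of -5.0 and -4.20 log2 units to the median of the other 5, while the NM_001163168 probe had -0.56 and lay within the range of the orchidectomized arrays. Which TrkB forms each probe reads was not determined here.

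Without the array labelled sham 2, the differences of the Ntrk2 probes did not exceed their standard errors. A_42_P538400 differed by 0.29 ± 0.30 (SE; adjusted p 0.988 by limma), with a 95% interval of 0.733-fold to 2.03-fold, and by -0.0033 when orchidectomized 3 was left out as well. A_64_P058883 differed by 0.032 ± 0.18 (SE; adjusted p 0.991 by limma), with a 95% interval of 0.754-fold to 1.39-fold. A_42_P631184 differed by -0.13 ± 0.25 (SE; adjusted p 0.988 by limma), with a 95% interval of 0.589-fold to 1.41-fold, and by 0.079 when orchidectomized 3 was left out as well. With all 6 arrays the differences were 1.95, 1.44 and 0.028 in the same order of probes, with standard errors of 1.43, 1.20 and 0.29.

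The per-array difference between probes of Ntrk2 shows the divergence within each array. A_42_P538400 minus A_42_P631184 was 1.66, 1.69 and 3.19 on orchidectomized 1 to 3, against 1.53, -2.74 and 1.99 on sham 1 to 3. The highest of these values is orchidectomized 3 and the lowest is the array labelled sham 2, and the groups overlap. This probe difference was 1.92 higher in the orchidectomized group over 6 arrays (exact two-sided permutation p = 0.4) and 0.42 higher without the array labelled sham 2 (exact two-sided permutation p = 0.8), where the smallest p that these designs allow is 0.1 and 0.2. The other pairs, both other pairs of Ntrk2 probes and the pair of Ntrk3 probes, gave exact permutation p-values of 0.3 to 0.5 over 6 arrays and 0.6 to 1.0 without the array labelled sham 2; 4 pairs were compared, and no p was adjusted because none could reach the threshold.

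Ntrk3, the TrkC gene, was read by a pair of probes that were both low on the array labelled sham 2. A_64_P035162 had 3.40, 3.35 and 3.49 on orchidectomized 1 to 3, against 3.34, -4.46 and 3.50 on sham 1 to 3. A_64_P127858 had 1.78, 1.67 and 1.11, against 1.68, -5.12 and 1.75. The first probe kept all 5 other arrays within 0.163 log2 units, and the second stood at -0.61 from the median of the other 4 on orchidectomized 3. On the 5 other arrays the first differed by -0.011 ± 0.13 (SE; adjusted p 0.996 by limma), with a 95% interval of 0.791-fold to 1.24-fold. The second differed by -0.20 ± 0.23 (SE; adjusted p 0.988 by limma), with a 95% interval of 0.590-fold to 1.29-fold, and by 0.011 when orchidectomized 3 was left out as well. With all 6 arrays the differences were 2.62 and 2.08, with standard errors of 2.22 and 1.94.

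Ngfr, the p75NTR gene, was the only member gene whose probe was not lower on the array labelled sham 2. Its values were -5.51, -5.47 and -5.96 on orchidectomized 1 to 3, against -5.46, -5.06 and -5.71 on sham 1 to 3. The array labelled sham 2 was the highest of the 6, by 0.45 log2 units over the median of the other 5, and orchidectomized 3 was the lowest. The probe was well above background on all 6 arrays, and the SD between its 10 spots was 0.040 to 0.184. On the 5 other arrays the difference was -0.065 ± 0.20 (SE; adjusted p 0.988 by limma), with a 95% interval of 0.677-fold to 1.35-fold, and over 6 arrays it was -0.24 ± 0.26 (SE; adjusted p 0.775 by limma). With normexp background correction these differences were 0.24 and 0.11, where the medians of all tested probes were 0.083 and 0.079, so the sign for Ngfr changed with the background correction.

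**Figure D2:**
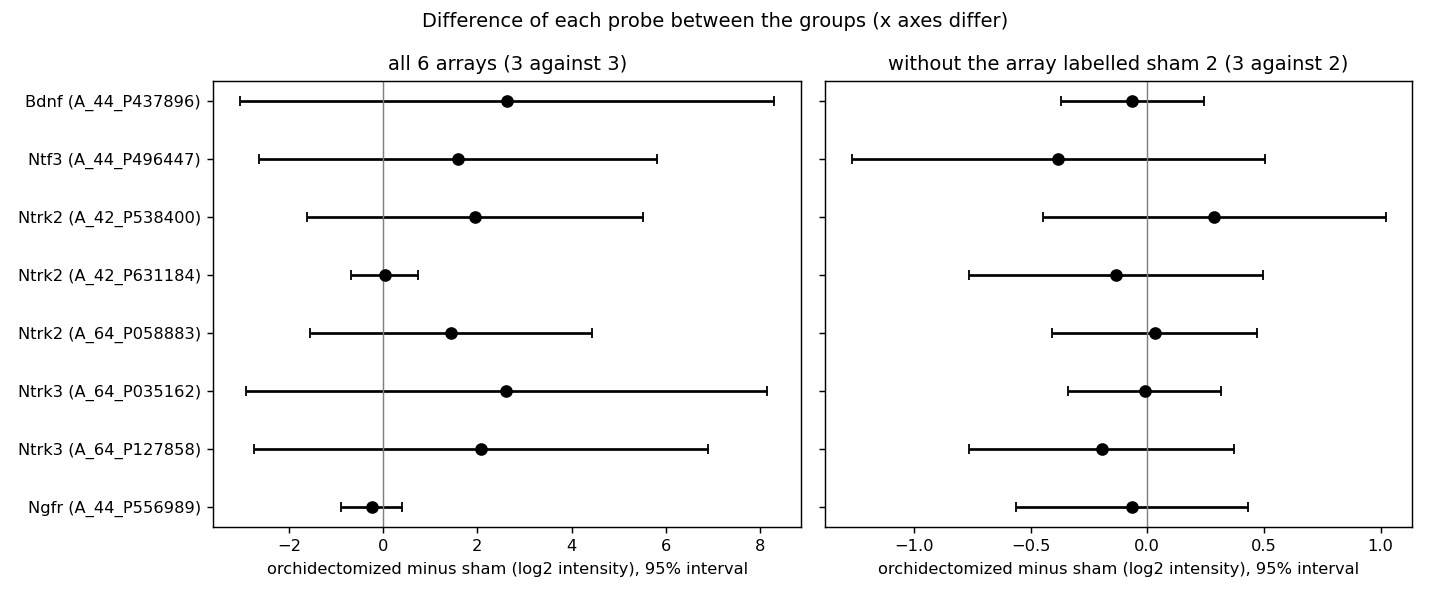
Difference between the groups (x axis, orchidectomized minus sham, log2 intensity) for the 8 probes (rows), with all 6 arrays on the left and without the array labelled sham 2 on the right; points are limma estimates and bars 95% intervals. All 16 intervals include 0, and the estimates without that array lie between -0.38 and 0.29.

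On the array labelled sham 2 the members formed 2 sets. There 6 of the 8 probes were lower by over 1 log2 unit than the median of the other 5 arrays, beside 24.0% of all tested probes. The same 6 were lower by over 4 units, beside 5.99%, and 0 of 8 were higher by over 1 unit, beside 18.8%. The distances to that median were -8.06 for Bdnf, -7.86 and -6.80 for the Ntrk3 probes, -5.82 for Ntf3 and -5.0 and -4.20 for the NM_012731 probes of Ntrk2. Bdnf and Ntf3 were not well above background there, so their distances rest on values at the floor, and they were at least 65.9-fold and at least 51.2-fold brighter on the mean of the other 5 arrays, a bound set by the higher of the probe's own value there and the dimmest signal well above background. Beside these values, the medians of the marker lists on that array were -7.48 for glutamatergic neurons, with 6 of 10 genes well above background there and 10 of 10 on each other array, -5.44 for GABAergic interneurons, -4.24 for astrocytes and -4.47 for oligodendrocytes. They were 2.20 for meninges and fibroblasts, 0.13 for endothelium and 0.11 for pericytes and smooth muscle. These lists, with ependyma at 3.26 and choroid plexus, were the marker lists with a median above 0. For endothelium 6 genes were higher and 3 lower there, and the list mean was -1.86, against -1.69 to -1.30 on the other arrays. The part of these cell types in the members' values was not tested, and in bulk tissue fewer cells of a type and less RNA per cell cannot be told apart.

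**Figure D3:**
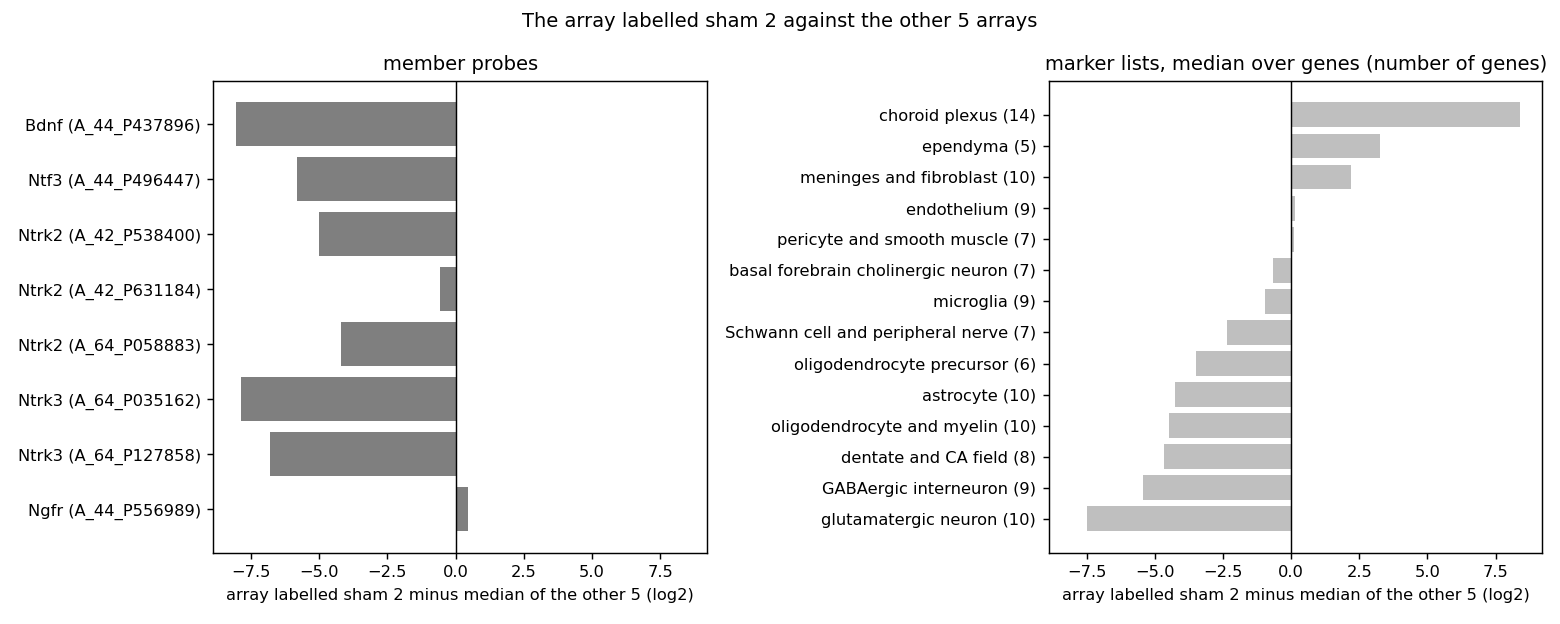
Log2 difference between the array labelled sham 2 and the median of the other 5 arrays (x axis) for each member probe (left) and, as a median over genes, for each marker list (right, number of genes on the array in brackets). The Ntrk3 probes stand at -7.86 and -6.80. Bdnf and Ntf3 are drawn at their values on that array, which were not well above background, while the NM_001163168 probe of Ntrk2 (-0.56) and Ngfr (0.45) lie near 0.

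Among the other 5 arrays, orchidectomized 3 was the one that stood apart at several members. At 4 of the 8 probes its distance to the median of the other 4 arrays was over 0.5 log2 units. Ntf3, Ntrk2 A_42_P631184 and Ntrk3 A_64_P127858 were lower and Ntrk2 A_42_P538400 was higher. The third Ntrk2 probe, A_64_P058883, stood at 0.16. Each of the other 4 arrays had 0 of 8 such probes. The share of all tested probes past that distance was 20.5% on orchidectomized 3, 4.13% and 6.92% on orchidectomized 1 and 2, and 10.5% and 7.94% on sham 1 and sham 3. This array also had 672 spots with an outlier flag against 235 to 313 on the others, and the part of those spots in the result was not tested. With orchidectomized 3 left out as well, the differences at those 4 probes were between -0.037 and 0.079. Those probes were picked by the distance of that array, so small differences without it largely follow from the choice. The difference of Bdnf without orchidectomized 3 was -0.087.

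**Figure D4:**
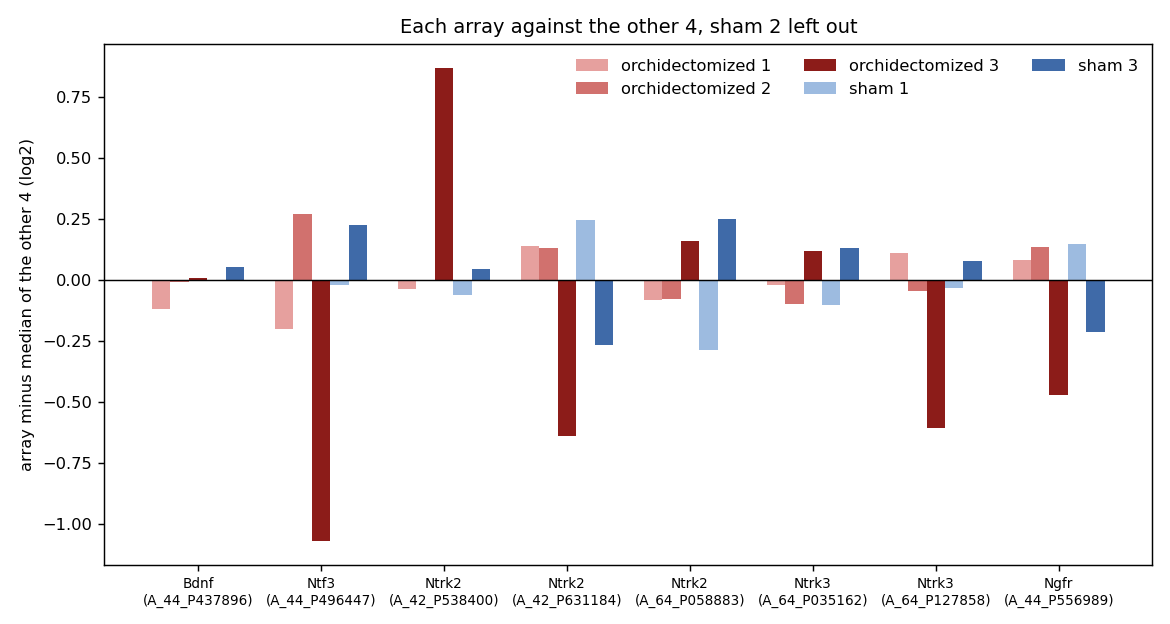
Log2 distance of each array from the median of the other 4 (y axis) for the 8 member probes (x axis), with the array labelled sham 2 left out; each bar is 1 array. Orchidectomized 3 runs from -1.07 at Ntf3 to 0.87 at Ntrk2 A_42_P538400, and the other arrays stay within -0.29 and 0.27.

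Slides and scan days were not balanced between the groups. The slide that held both groups held orchidectomized 3 and sham 1, and on it the differences were 0.0052 for Bdnf, -0.99 for Ntf3 and -0.50 for Ngfr. On that slide they were 0.91, -0.75 and 0.36 for the Ntrk2 probes A_42_P538400, A_42_P631184 and A_64_P058883, and 0.15 and -0.57 for the Ntrk3 probes A_64_P035162 and A_64_P127858. The first scan day held all 3 orchidectomized arrays and sham 1, and on it the differences were -0.040 for Bdnf, -0.30 for Ntf3, -0.19 for Ngfr, 0.33, -0.32 and 0.26 for the Ntrk2 probes and 0.070 and -0.16 for the Ntrk3 probes. These within-batch values equal the fits that block on slide or on scan day. Those of the scan day rest on sham 1 as the only sham array. Those of the slide rest on sham 1 and orchidectomized 3 alone, the array that stood apart at 4 of the 8 probes. They are therefore given as sizes only.

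Ntf4, which encodes the TrkB ligand NT-4, was 4.50 log2 units higher on the array labelled sham 2 than the median of the other 5. Its values were -6.96, -7.85 and -6.91 on orchidectomized 1 to 3, against -6.52, -2.46 and -7.20 on sham 1 to 3. It was not well above background on orchidectomized 2, so it passed the brightness filter through the sham group only. Its difference without the array labelled sham 2 was -0.38 ± 0.36 (SE; adjusted p 0.988 by limma), or 0.23 with normexp. Its size depended on single arrays, with -0.042 when sham 1, -0.076 when orchidectomized 2 and -0.72 when sham 3 was left out as well. Sort1, which encodes the p75NTR partner sortilin, had 2.48, 2.41 and 2.56, against 2.46, 1.07 and 2.61. Its difference without the array labelled sham 2 was -0.049 ± 0.13 (SE; adjusted p 0.988 by limma).

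The wider pathway was read from 7 lists with the brightest probe of each gene, and limma called 0 genes of any list in either comparison at an adjusted p under 0.05. All list counts that follow leave out the array labelled sham 2. The median difference of all tested probes was then -0.024, 55.1% of them lay below 0 and 2.71% had an unadjusted p under 0.05 by limma. Of the 8 ligand and receptor genes 7 were tested, with 1 estimate above and 6 below 0 and a median of -0.065. Of the 12 genes of the sortilin family and the p75NTR co-receptors, 3 lay above and 9 below 0, with a median of -0.13. Sorcs3, a sortilin relative, had 0.051 and Traf6, an adaptor of p75NTR, -0.45, and 0 of these genes had an unadjusted p under 0.05.

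Genes that process or release proneurotrophins were evenly split. Of 17 on the array 14 were tested, with 7 estimates above and 7 below 0 and a median of -0.0088. Plau, which encodes urokinase, was the 1 gene of these 14 with an unadjusted p under 0.05, beside 2.71% of all tested probes. It is named because its p was the smallest among the lower genes of the list. Plau had -6.81, -7.55 and -8.08 on orchidectomized 1 to 3, against -6.15, -5.74 and -6.66 on sham 1 to 3. The groups did not overlap with or without the array labelled sham 2, as at 8.0% and 16.3% of all tested probes. The difference without that array was -1.07 ± 0.39 (SE; adjusted p 0.988 by limma), with a 95% interval of 0.243-fold to 0.930-fold, and it turned to 0.064 with normexp background correction. The probe was dim and well above background on 5 of 6 arrays, 2 of them orchidectomized and 3 sham. It thus passed the brightness filter through the sham group only, the group where it was higher. Cpe, which encodes the carboxypeptidase that sorts proBDNF, had 0.29 ± 0.28 (SE), with its probe saturated on 4 of 6 arrays. That difference was 0.041 when sham 3, 0.085 when orchidectomized 3 and 0.55 when sham 1 was left out as well.

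Trk adaptors and signal transducers, which carry the receptor signal to the Ras, PI3 kinase and phospholipase C branches, had 21 of 37 estimates above and 16 below 0 and a median of 0.011. Shc3, an adaptor of neuronal Trk receptors, was the 1 gene of these 37 with an unadjusted p under 0.05, beside 2.71% of all tested probes. It is named because its p was the smallest among the higher genes of the list. It had -2.87, -2.84 and -2.71 on orchidectomized 1 to 3, against -3.21, -4.60 and -3.12 on sham 1 to 3. All orchidectomized values lay above all sham values, as at 6.24% of all tested probes without the array labelled sham 2, and the difference was then 0.36 ± 0.13 (SE; adjusted p 0.988 by limma), with a 95% interval of 1.03-fold to 1.60-fold. Sos1, the exchange factor that loads Ras, had -0.25 ± 0.16 (SE). Its groups did not overlap with or without the array labelled sham 2, as at 8.0% and 16.3% of all tested probes. The same held for Traf6, named above, for Bhlhe40 and Nptx1, named below, and without that array for Ripk2. Groups overlapped in both comparisons at Sorcs3, Cpe, Rest and Pcsk1. All these genes were named for their p, so separation partly follows from the choice.

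Regulators of Bdnf transcription had 5 of 17 estimates above and 12 below 0, with a median of -0.039. Rest, a repressor of neuronal genes, had 0.16 ± 0.16 (SE), and Bhlhe40, a transcriptional repressor, had -0.29 ± 0.15 (SE). Genes known to respond to BDNF and TrkB had 11 of 25 above and 14 below 0, with a median of -0.0015; this list shares Ntrk2 with the family list and Pcsk1 with the processing list. Nptx1, a secreted pentraxin of synapses, had 0.14 ± 0.12 (SE), and Pcsk1, which encodes a prohormone convertase, had -0.45 ± 0.25 (SE). Genes of p75NTR death and growth-inhibition signalling had 8 above and 8 below 0 of 16 tested, with a median of 0.016. Ripk2, a kinase that binds p75NTR, had -0.25 ± 0.16 (SE). In these 3 lists 0 genes had an unadjusted p under 0.05 in limma.

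With all 6 arrays the list medians lay farther apart. The family list had 1.59, the BDNF-TrkB responsive genes 1.01, with 23 of 25 estimates above 0, and the sortilin and co-receptor list 0.39, while the median of all tested probes was -0.016. The adaptor list had 0.0058, the Bdnf regulators -0.061 and the p75NTR signalling list -0.16. On the array labelled sham 2 the responsive genes had a median distance of -3.09 log2 units to the other 5 arrays, with 23 of 25 lower.

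**Figure D5:**
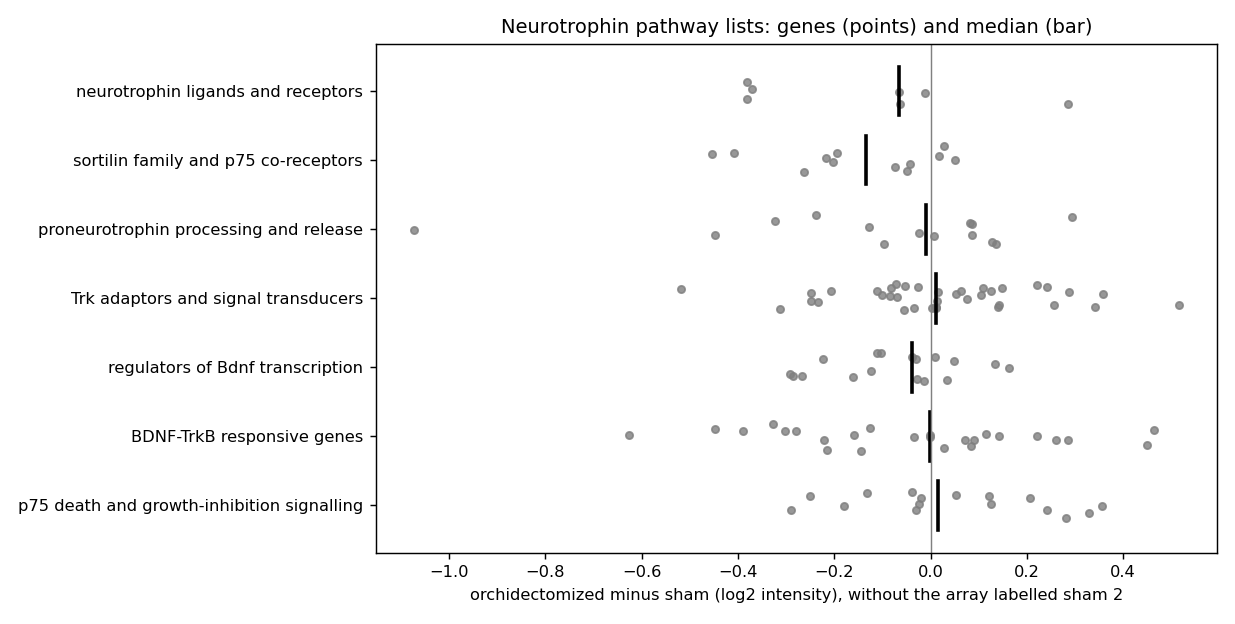
Difference between the groups without the array labelled sham 2 (x axis, orchidectomized minus sham, log2 intensity) for the genes of the 7 pathway lists (rows); points are genes by their brightest probe and bars are list medians. The list medians lie between -0.13 and 0.016, and Plau at -1.07 is the point farthest from 0.

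The genes whose pattern over the 6 arrays lay nearest to each member were found by the root mean square difference of log2 values centred on each probe's own mean, among tested probes with a symbol. For Bdnf these were Scg2 (0.057 log2 units), Tuba8 (0.075) and Lrrc7 (0.076), and for the brighter Ntrk3 probe Brinp3 (0.023), Gabbr2 (0.084) and Lrrc7 (0.089) by another probe. Scg2 had 4.06, 4.04 and 4.0 on orchidectomized 1 to 3, against 4.11, -4.01 and 4.13 on sham 1 to 3. For Ntf3 they were Ret (0.080), Scn4b (0.091) and Olig2 (0.095), and for the brightest Ntrk2 probe Slc7a3 (0.089), Sstr1 (0.097) and Cntnap4 (0.10). Those of Ntf3 share its low value on orchidectomized 3, and those of Ntrk2 its high value there. This follows from the choice, since that array is part of the measure. For Ngfr they were Cdk2ap2 (0.029), Patz1 (0.037) and Szrd1 (0.042). The array labelled sham 2 enters this measure with the others, with values for Bdnf and Ntf3 that were not well above background, and of these 15 matches 4 were found again with quantile normalization and 1 with normexp.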

How the data were processed

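Per the labels, 1 hippocampal RNA sample per rat was amplified and labelled with Cy3. Per the file headers, each 1-colour array was read with Agilent Feature Extraction 10.5.1.1, and the processed signal is a background-subtracted intensity; saturation, outlier and above-background flags are those of that software. The table that the authors deposited is in log2 units, each value equal to log2 processed signal plus 1 constant per array, -0.32 to 0.72; its column medians were 8.02, 7.94 and 7.91 (orchidectomized) against 7.77, 7.62 and 8.04 (sham). The origin of the constants, and so the centring, is not given in the sources used here.

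Control spots (1377 of 44254) and spots with an outlier flag were left out, log2 processed signals of a probe's spots were averaged, and each array's 75th percentile was subtracted. Accessions matched to RefSeq named 18004 of 30367 probes. Between 23785 and 26173 probes were well above background (at least 0.5 of their spots) per array. The test was limma 3.58.1 in R 4.3.3 (lmFit, then eBayes, two-sided), run on probes that passed this flag on every array of at least 1 group, and p-values were adjusted by Benjamini and Hochberg over all of them. Fits were checked on simulated data. Named genes are the members, Ntf4, Sort1, the gene with the smallest p per direction in each list, and the 3 nearest patterns per member; some results of this rule are not reported here. Members and lists were chosen with earlier results of these data known. Alternatives were normexp (offset 50, median spot signals), quantile and median scaling, brightness filters, deposited values, array weights, an intensity trend, blocks and left-out arrays.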

Additional observations from a re-analysis of the deposited data

How the results depend on the processing

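No member probe was called under any alternative; the smallest adjusted p by limma was 0.120 with 6 arrays and 0.137 with sham 2 set aside. Over 6 arrays, 1 probe was called with quantile normalization and 13 with array weights, and 0 with any array left out. Without the array labelled sham 2, 2 were called with quantile normalization, 1 with median scaling, 18 from the authors' deposited table, 10 blocking on scan day, and 0 to 251 leaving out each array (22 without sham 1, 251 without sham 3, where the lone sham array is assumed to vary like the other group). Over 6 arrays these differences turned: with array weights Bdnf -0.035, Ntf3 -0.021 and Ntrk2 A_42_P631184 -0.092; with median scaling Ntrk2 A_42_P631184 -0.057; with slide as a block Ntf3 -0.99, Ntrk2 A_42_P631184 -0.75 and Ntrk3 A_64_P127858 -0.57; with scan day as a block Bdnf -0.040, Ntf3 -0.30, Ntrk2 A_42_P631184 -0.32 and Ntrk3 A_64_P127858 -0.16; with normexp Ngfr 0.11. Without the array labelled sham 2, normexp turned Ngfr (0.24), Ntf4 (0.23), Plau (0.064) and Ripk2 (0.032); quantile normalization Ngfr (0.064) and Cpe (-0.046); array weights Ntrk2 A_42_P631184 (0.046) and A_64_P058883 (-0.013), Ngfr (0.066) and Sorcs3 (-0.058); deposited values Ntrk3 A_64_P035162 (0.042) and Sort1 (0.0037); slide as a block Bdnf (0.0052), Ntrk3 A_64_P035162 (0.15) and Sort1 (0.10); scan day as a block Ntrk3 A_64_P035162 (0.070), Sort1 (0.022) and Rest (-0.019). The cause was not tested. Median scaling moved the median of all probes to -0.10 over 6 arrays. Leaving out each array over 6 arrays gave -0.064 to 3.99 for Bdnf, -0.38 to 2.61 for Ntf3, -0.13 to 0.24 for Ntrk2 A_42_P631184, -0.011 to 3.97 for Ntrk3 A_64_P035162 and -0.20 to 3.24 for Ntrk3 A_64_P127858. Without the array labelled sham 2 it gave -0.0033 to 0.44 for Ntrk2 A_42_P538400, -0.32 to 0.079 for A_42_P631184, -0.19 to 0.26 for A_64_P058883, -0.093 to 0.070 for Ntrk3 A_64_P035162, -0.33 to 0.011 for A_64_P127858, -0.19 to 0.093 for Ngfr, -0.12 to 0.022 for Sort1, -0.063 to 0.16 for Sorcs3 and -0.019 to 0.34 for Rest. For the differences between probes, alternatives chosen after seeing the data, it gave -0.083 to 0.68, 0.017 to 0.44 and -0.58 to 0.25 for the Ntrk2 pairs and -0.061 to 0.32 for Ntrk3; those for the nearest patterns were also chosen then. Over 6 arrays the deviations of same-numbered arrays from their group means correlated at 0.027, -0.023 and -0.018. The array labelled sham 2 enters the sham mean there, so these values cannot show whether the numbers are pairs. Without it they were 0.18 for number 1 and -0.060 for number 3. The remaining sham deviations then mirror each other, so pairing cannot be judged there either. With the number as a replicate block 0 probes were called in both comparisons. In that fit Ntrk3 A_64_P035162 turned to 0.022 without the array labelled sham 2. Requiring probes to be well above background on all arrays left no value for Bdnf and Ntf3 over 6 arrays. Without the array labelled sham 2 it left none for Ntf4 and Plau.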
